A study of Homo sapiens with 4 samples.

Results

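SULF2 and the enzymes that build and sulfate heparan sulfate were followed in A549, an established human lung carcinoma line of epithelial origin, after a hairpin against INSL4. The set holds 10 genes named by function: the extracellular sulfatases SULF2 and SULF1, the chain polymerases EXT1 and EXT2, the N-sulfotransferases NDST1 and NDST2, the epimerase GLCE, and the O-sulfotransferases HS2ST1, HS6ST1 and HS6ST2. A gene was taken from the array row whose platform annotation gives exactly 1 symbol, and from the row with the highest mean where a gene has several. That gave values for 9 of the 10 genes, out of 22465 genes measured in this way. HS2ST1 shares its row with a second symbol and is not analysed here. SULF2 was selected on its known difference in level between the groups, the highest-mean rows were chosen by the mean over all 4 arrays, and the SULF2 difference is therefore described with no test. The other genes were listed for their roles, with earlier results of these data known.

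The knockdown cells (shINSL4) carried a pLKO.1 lentivirus with 1 hairpin against INSL4, and the control cells (shCtl) a control lentivirus. The design calls the control a scrambled hairpin and the labels call it a vector control. Both groups are A549 cells after lentiviral transduction, and each has 2 independent cultures with 1 Affymetrix array per culture, 4 arrays in all. It is not stated whether a group's cultures share 1 transduction, so the p-values cover only the spread among these cultures, and precision is limited by there being 2 arrays per group. INSL4 itself, which checks the labels, had log2 levels of 7.26 and 7.22 on the shINSL4 arrays, against 9.03 and 8.92 on the shCtl arrays. All 5 markers listed for A549 cells, the aldo-keto reductases AKR1B10 and AKR1C1, the aldehyde dehydrogenases ALDH1A1 and ALDH3A1, and NQO1, had group means from 9.95 to 13.12 and adjusted p from 0.215 to 0.967 between the groups (limma, Benjamini-Hochberg method). Of the 5 epithelial markers, 4 were lower in shINSL4 cells and 0 higher at an adjusted p under 0.05 (limma, Benjamini-Hochberg method), against 9.42% lower and 6.41% higher of all tested genes. Their mean log2 level was 9.51 to 9.53 on the shINSL4 arrays, against 9.82 to 9.84 on the shCtl arrays. Alveolar type II markers, which include the surfactant genes, averaged 6.71 to 6.76 on the shINSL4 arrays, against 6.52 to 6.66 on the shCtl arrays.

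Heparan sulfate is a long sugar chain carried by proteoglycans at the cell surface and in the matrix. The chain is polymerised in the Golgi by a complex of EXT1 and EXT2 and is then modified in order: N-sulfation by NDST enzymes, epimerisation by GLCE, and O-sulfation by HS2ST1 and the HS6ST enzymes. The resulting sulfate pattern lets the chain bind growth factors such as FGFs and act as a coreceptor. SULF2 and SULF1 edit the finished chain outside the cell by removing sulfate that the HS6ST enzymes had added.

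The sequences just upstream of SULF2, EXT2 and NDST1 are shown because these genes had the largest differences in the set. Each is the 250 bases before the outermost transcription start in the RefSeq table of GRCh38.p14, read 5′ to 3′ on the strand of the gene. SULF2 lies on the minus strand, with the window at chr20:47786628-47786877. EXT2 and NDST1 lie on the plus strand, with windows at chr11:44095428-44095677 and chr5:150497529-150497778. Capitals mark every match, on either strand, to TGACG (the core of the CREB site), CACGTG (the E-box), GGGCGG (the GC box) or TATAAA (the TATA box).
SULF2: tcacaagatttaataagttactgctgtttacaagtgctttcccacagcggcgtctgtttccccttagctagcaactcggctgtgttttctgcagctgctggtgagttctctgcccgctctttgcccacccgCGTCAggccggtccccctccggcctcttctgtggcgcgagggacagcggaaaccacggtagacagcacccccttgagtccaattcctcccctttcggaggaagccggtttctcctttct
EXT2: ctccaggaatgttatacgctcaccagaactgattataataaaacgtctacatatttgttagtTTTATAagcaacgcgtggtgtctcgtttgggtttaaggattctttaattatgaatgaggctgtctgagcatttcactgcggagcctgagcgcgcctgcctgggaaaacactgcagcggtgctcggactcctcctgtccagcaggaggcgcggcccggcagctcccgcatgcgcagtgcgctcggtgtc
NDST1: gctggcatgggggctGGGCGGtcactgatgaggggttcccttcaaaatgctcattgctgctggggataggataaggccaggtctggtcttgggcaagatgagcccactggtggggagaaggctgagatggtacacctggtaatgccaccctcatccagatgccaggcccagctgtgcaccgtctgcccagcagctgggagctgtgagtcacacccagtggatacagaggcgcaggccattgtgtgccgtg
The SULF2 window holds 1 match to TGACG, which is also found in 21.2% of the 35116 windows of the same length in that table. It holds no match to TGACGTCA, the full CREB site with which TGACG overlaps and which 1.65% of windows hold. The EXT2 window holds 1 TATAAA, present in 10.7% of windows, and the NDST1 window holds 1 GGGCGG, present in 42.6%. None of the 3 windows holds CACGTG, which 6.34% of windows hold. SULF2 has 4 starts in the table and EXT2 has 3, and only the outermost of each is shown. Of the 10 genes, 8 have an entry there. A match is a description of these letters and not a binding site.

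SULF2 was the gene of the set with by far the greatest difference. Its log2 level, from the authors' RMA values, was 9.31 and 9.33 on the shINSL4 arrays, against 8.04 and 8.09 on the shCtl arrays. Both shINSL4 arrays lay above both shCtl arrays, and the 2 arrays of a group lay close together. The means were 9.32 ± 0.0115 in shINSL4 cells and 8.07 ± 0.0374 in shCtl cells (SD, n = 2 each). The log2 fold change was 1.25 (SE 0.0618), which is a 2.38-fold higher level in shINSL4 cells, and only 3 of all tested genes had a larger increase. Each array measures RNA pooled over a culture, so more cells with a transcript and more of it per cell cannot be told apart. The second extracellular sulfatase, SULF1, had log2 levels of 4.40 and 4.48 on the shINSL4 arrays, against 4.39 and 4.23 on the shCtl arrays. The shINSL4 arrays were higher by less than the spread within shCtl. Its log2 fold change was 0.12 (SE 0.0769) with a 95% interval of -0.06 to 0.31, and it did not pass (adjusted p = 0.270, limma, Benjamini-Hochberg method). SULF1 and HS6ST2 lie among the 5617 dimmest of the tested genes, up to a log2 level of 5.67, where the median log2 fold change of all genes was 0.10. Among the 5616 brightest, which include SULF2, EXT1, EXT2, NDST1 and GLCE, that median was 0.00304.

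**Figure D1:**
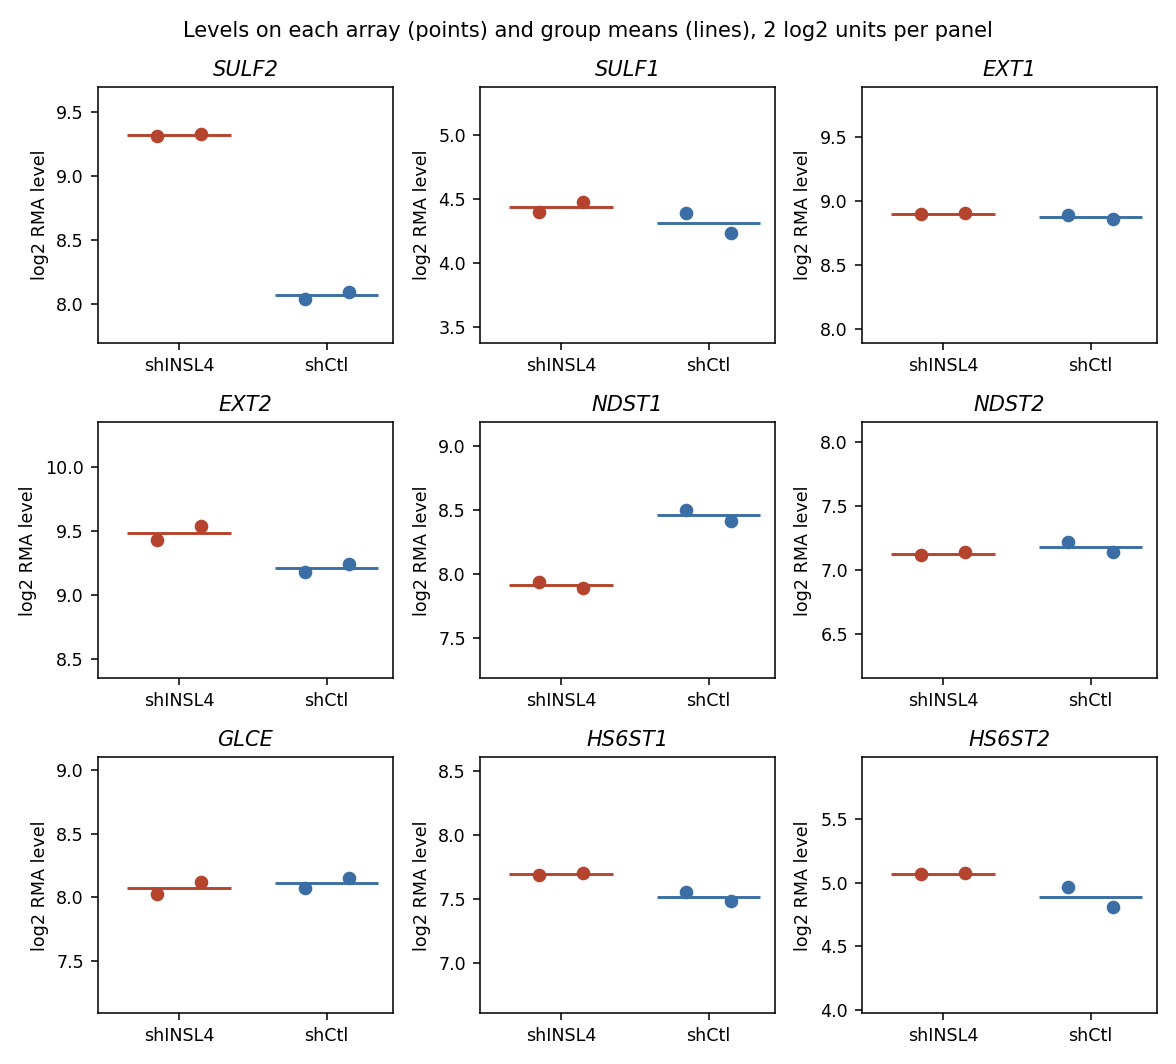
Log2 RMA level (vertical axis) of the 9 measured genes on each array, with shINSL4 arrays in red at the left of each panel and shCtl arrays in blue at the right. Points are arrays, replicate 1 left of replicate 2, and lines are means of 2; every panel spans 2 log2 units. SULF2 stands higher in shINSL4 cells, at 9.32 against 8.07, and NDST1 stands lower, at 7.91 against 8.46, while the other panels show small differences.

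Among the 8 measured genes other than SULF2, 1 was higher and 1 lower in shINSL4 cells at an adjusted p under 0.05 (limma, Benjamini-Hochberg method over all tested genes). Over all tested genes 6.41% were higher and 9.42% lower, or 15.8% in either direction, and 2 of 8 genes is too few to be set apart from that share. Of all calls 40.5% were higher, but 25.6% after median centring, 23.5% after cyclic loess and 35.2% after quantile normalization, and 53.5% in the replicate block fit, 52.7% at an adjusted p under 0.1 and 55.2% without shCtl replicate 1. The 2 groups of arrays did not overlap for 7 of the 8 genes, 5 of them higher and 2 lower in shINSL4 cells. Over all genes the groups did not overlap for 68.9%, with 48.0% higher and 20.8% lower. The median log2 fold change of the 8 genes was 0.07, against 0.08 for all tested genes.

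The polymerase subunits differed from each other in their values. EXT2 had log2 levels of 9.43 and 9.54 on the shINSL4 arrays, against 9.18 and 9.25 on the shCtl arrays. The groups did not overlap, and EXT2 rose by 0.27 on the log2 scale (SE 0.0688), a 1.21-fold higher level in shINSL4 cells (adjusted p = 0.0417, limma, Benjamini-Hochberg method). That call was lost in a limma fit over all 67528 array rows (adjusted p = 0.154, Benjamini-Hochberg method). The call was lost too after median centring of the arrays (adjusted p = 0.0987). It was also lost when any single array was left out, where the log2 fold change was 0.22 to 0.33. In the fits without 1 of the shINSL4 arrays every named gene had the same SE, 0.131. A call lost in those fits, here and below, does not by itself show dependence on that array. EXT1, the other subunit of the complex, had 8.90 and 8.90 on the shINSL4 arrays, against 8.89 and 8.86 on the shCtl arrays. These values are nearly level: the log2 fold change was 0.02 (SE 0.0606), with a 95% interval of -0.12 to 0.17 (adjusted p = 0.778, limma, Benjamini-Hochberg method). After median centring or cyclic loess the EXT1 value was -0.02 and -0.00342.

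NDST1, which replaces acetyl groups of the chain with sulfate and so opens it to the later enzymes, fell in shINSL4 cells. Its log2 level was 7.93 and 7.89 on the shINSL4 arrays, against 8.50 and 8.41 on the shCtl arrays. The shINSL4 arrays were both below the lower shCtl array. NDST1 fell by 0.55 in log2 units (SE 0.0653), which is 1.46-fold lower in shINSL4 cells (adjusted p = 0.00272, limma, Benjamini-Hochberg method). A second, dimmer row annotated to NDST1 did not show this. It had log2 levels of 6.10 and 5.98 on the shINSL4 arrays, against 5.99 and 5.97 on the shCtl arrays, with overlapping groups and a log2 fold change of 0.06. With the mean of both rows NDST1 had a log2 fold change of -0.24 and an adjusted p of 0.0516 (limma, Benjamini-Hochberg method). What the second row measures is not given in the sources used here.

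NDST2, the second N-sulfotransferase of the set, had log2 levels of 7.11 and 7.14 on the shINSL4 arrays, against 7.22 and 7.14 on the shCtl arrays. One shCtl array was almost level with the shINSL4 arrays, and the log2 fold change was -0.05 (SE 0.0640), with a 95% interval of -0.21 to 0.10 (adjusted p = 0.550, limma, Benjamini-Hochberg method). GLCE, the epimerase that turns glucuronic into iduronic acid, had 8.03 and 8.12 on the shINSL4 arrays, against 8.08 and 8.15 on the shCtl arrays. The groups overlapped, and the log2 fold change was -0.04 (SE 0.0689), with a 95% interval of -0.21 to 0.12 (adjusted p = 0.662, limma, Benjamini-Hochberg method).

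HS6ST1 and HS6ST2 add the sulfate groups that SULF2 removes. HS6ST1 had log2 levels of 7.69 and 7.71 on the shINSL4 arrays, against 7.55 and 7.49 on the shCtl arrays, with no overlap between the groups. The log2 fold change was 0.18 (SE 0.0627), and it did not pass over all genes (adjusted p = 0.104, limma, Benjamini-Hochberg method). HS6ST2 had 5.07 and 5.07 on the shINSL4 arrays, against 4.96 and 4.81 on the shCtl arrays. Its shCtl arrays differed from each other almost as much as from the shINSL4 arrays, and the log2 fold change was 0.18 (SE 0.0740, adjusted p = 0.134, limma, Benjamini-Hochberg method). HS6ST1 passed with the dimmest 40% of genes left out (adjusted p = 0.0454) and HS6ST2 passed without shCtl replicate 1 (adjusted p = 0.0404).

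Each pair of related enzymes was also compared through the difference of their log2 levels on every array, of which only the change between the groups can be read, since each level also depends on its probes. NDST1 minus NDST2 was 0.82 and 0.75 on the shINSL4 arrays, against 1.28 and 1.27 on the shCtl arrays, a change of -0.49. That change holds for the brighter NDST1 row only. The second NDST1 row had a log2 fold change of 0.06, against -0.05 for NDST2. EXT2 minus EXT1 was 0.53 and 0.64 on the shINSL4 arrays, against 0.29 and 0.39 on the shCtl arrays, a change of 0.25. HS6ST1 minus HS6ST2 was 2.62 and 2.63 on the shINSL4 arrays, against 2.59 and 2.68 on the shCtl arrays, and these overlapped. The first and second pairs were separated by group, but an exact two-sided permutation test over 4 arrays cannot go below p = 0.333, which both reached (adjusted p = 0.5 over the 3 pairs). The third pair had an exact permutation p of 1.

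**Figure D2:**
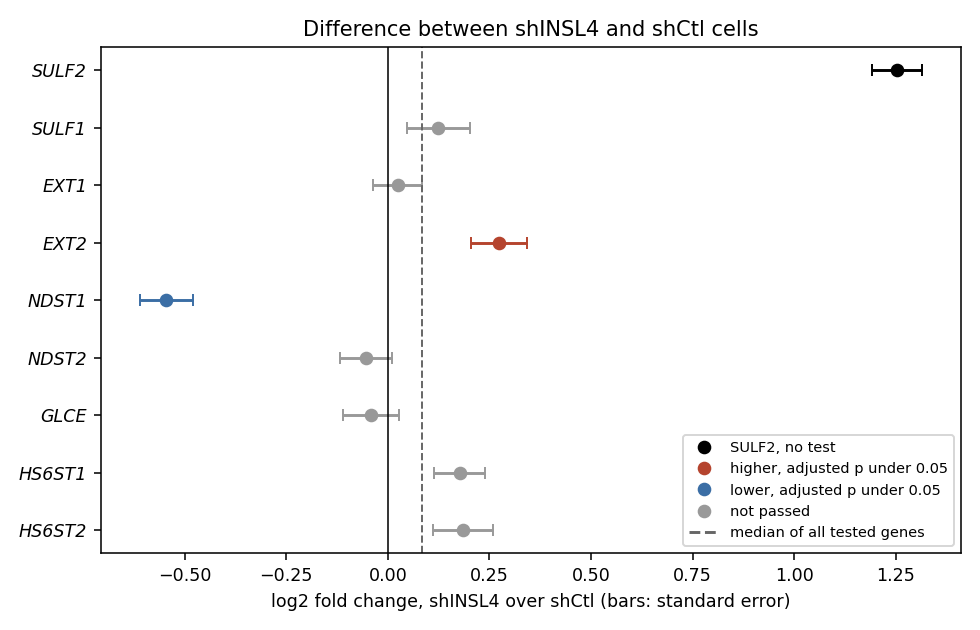
Log2 fold change, shINSL4 over shCtl (horizontal axis), of the 9 measured genes, with limma's standard error as bars. The dashed line is the median of all tested genes, 0.08. SULF2 at 1.25 lies far to the right and NDST1 at -0.55 to the left; NDST1 and EXT2 are coloured as past the threshold, and SULF2 is drawn in black because it has no test.

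Genes that supply, carry and break down the chain were then set beside these enzymes, in lists written from textbook knowledge. Of 106 measured genes in the 8 lists, each counted once, 12 were higher and 11 lower in shINSL4 cells, or 21.7% against the 15.8% of all tested genes, and their median log2 fold change was 0.11 against 0.08. The core proteins that carry heparan sulfate had 4 of 13 genes higher and 0 lower, with a median of 0.21. Of all tested genes 6.41% were higher and 9.42% lower. GPC6, a glypican anchored to the membrane by a lipid, had log2 levels of 8.60 and 8.66 on the shINSL4 arrays, against 8.07 and 8.06 on the shCtl arrays, and rose by 0.56 (SE 0.0622, adjusted p = 0.00206, limma, Benjamini-Hochberg method). The basement membrane proteoglycan HSPG2 (perlecan) rose by 0.36, the syndecan SDC4 by 0.32 and AGRN (agrin) by 0.27 on the log2 scale. GPC6 kept its call under all 13 alternatives. HSPG2 lost its call without shINSL4 replicate 1 (adjusted p = 0.0742) and SDC4 without either shINSL4 array or shCtl replicate 2 (adjusted p = 0.0535 to 0.132). AGRN lost its call in 5 of 13, among them median centring and cyclic loess (adjusted p = 0.0740 to 0.223). SDC1, a syndecan of epithelia, had a log2 fold change of -0.02 and was chosen here after its value was seen.

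The 7 genes of the linkage sugars, on which every chain starts, gave 0 higher and 0 lower in limma, Benjamini-Hochberg method, and their median was 0.14 on the log2 scale. The smallest p belonged to B3GAT3, which completes the linkage, at 0.21 (adjusted p = 0.0601), followed by PXYLP1 at 0.16, XYLT1, which starts the linkage, at 0.18, and B3GALT6 at 0.14. The 13 other elongation and modification enzymes also gave 0 in either direction, with a median of 0.11. The 4 with the smallest p were EXTL2 at 0.24, HS3ST4 at 0.23, HS3ST1 at 0.25 and HS3ST3A1 at 0.17, the last 3 being enzymes that add the rare 3-O-sulfate. B3GAT3 passed in 6 of 13 alternatives, HS3ST4 in 4, EXTL2 in 3 of 12 and HS3ST1 in 2. For B3GAT3, HS3ST4 and EXTL2 these include the same fit read at an adjusted p under 0.1, where they pass by their main value. At an unadjusted p under 0.05, limma gave 3 of the 7 linkage genes and 3 of the 13 others, against 7708 of the 22465 tested genes.

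Genes that supply sugar and sulfate moved in both directions, 2 higher and 1 lower of 11, with a median of -0.00852. Over all tested genes 6.41% were higher and 9.42% lower. SLC26A2, a sulfate transporter of the cell membrane, had log2 levels of 6.06 and 6.16 on the shINSL4 arrays, against 6.58 and 6.79 on the shCtl arrays, and fell by 0.58 (SE 0.0881, adjusted p = 0.00697, limma, Benjamini-Hochberg method). PAPSS1, which makes the activated sulfate donor, rose by 0.28, and SLC35D1, a transporter of sugar nucleotides into the endoplasmic reticulum, by 0.34. PAPSS1 lost its call after median centring (adjusted p = 0.0517) and without either shINSL4 array, and SLC35D1 in 4 of 13 alternatives (adjusted p = 0.0563 to 0.174). UGP2, which makes UDP-glucose, had a log2 fold change of -0.20 (adjusted p = 0.132, limma, Benjamini-Hochberg method).

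Lysosomal breakdown of heparan sulfate held the greatest difference of the 8 lists, that of HGSNAT. Of 9 measured genes of degradation, 1 was higher and 4 lower, against 6.41% higher and 9.42% lower of all tested genes. Their median was 0.00389. HGSNAT, the lysosomal acetyltransferase for heparan sulfate, had log2 levels of 8.41 and 8.34 on the shINSL4 arrays, against 9.56 and 9.56 on the shCtl arrays. It fell by 1.19 in log2 units (SE 0.0623), which is 2.28-fold lower in shINSL4 cells (adjusted p = 0.000184, limma, Benjamini-Hochberg method). The iduronate sulfatase IDS had 8.94 and 8.97 on the shINSL4 arrays, against 9.60 and 9.64 on the shCtl arrays, and fell by 0.67, while the glucosaminidase NAGLU fell by 0.39. The glucuronidase GUSB, chosen here after its value was seen, fell by 0.26 and lost its call in 3 of 13 alternatives. IDUA and SGSH, of the same list, went the other way, with log2 fold changes of 0.27 and 0.23. For both, the shINSL4 arrays lay above the shCtl arrays, but neither passed (adjusted p = 0.0575 and 0.0648, limma, Benjamini-Hochberg method). HPSE, the heparanase that cuts the chain outside the cell and in lysosomes, rose by 0.42, with 7.13 and 7.07 on the shINSL4 arrays against 6.65 and 6.72 on the shCtl arrays. HGSNAT, IDS, NAGLU and HPSE kept their calls under all 13 alternatives.

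SULF2 belongs to the sulfatases, which need a formylglycine made by SUMF1. Of 16 measured sulfatases and activators, IDS among them, 2 were higher and 3 lower, with a median of 0.11. The shares over all tested genes were 6.41% higher and 9.42% lower. Besides IDS, ARSD fell by 0.46 and the steroid sulfatase STS by 0.27, and the lysosomal GALNS rose by 0.24 on the log2 scale. SUMF2 and SUMF1 are related and were chosen here after their values were seen: SUMF2 rose by 0.25, and SUMF1 had a log2 fold change of 0.16 (adjusted p = 0.140, limma, Benjamini-Hochberg method). ARSD kept its call under all 13 alternatives, while STS lost it without 3 of the 4 arrays (adjusted p = 0.0715 to 0.269), GALNS in 5 of 13 (adjusted p = 0.0608 to 0.310) and SUMF2 in 5 of 13.

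**Figure D3:**
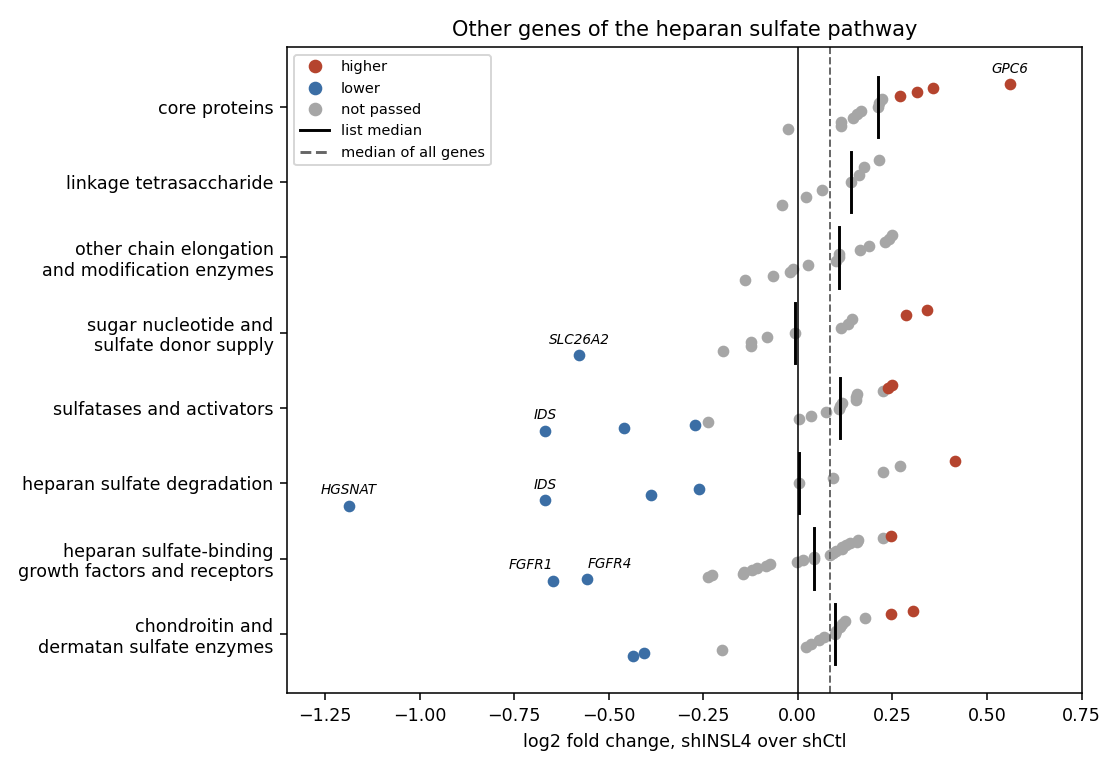
Log2 fold change, shINSL4 over shCtl (horizontal axis), of each measured gene in 8 lists (rows, spread vertically by rank). Red points were higher and blue points lower at an adjusted p under 0.05, black bars are list medians and the dashed line is the median of all genes, 0.08. HGSNAT at -1.19 and IDS at -0.67 lie far to the left, and GPC6 at 0.56 is the point farthest to the right.

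Among 25 measured growth factors and receptors that bind heparan sulfate, 1 was higher and 2 lower, with a median of 0.04. That is 12% called, against 15.8% of all tested genes. FGFR1, an FGF receptor that signals with heparan sulfate as coreceptor, had log2 levels of 8.65 and 8.68 on the shINSL4 arrays, against 9.33 and 9.29 on the shCtl arrays, and fell by 0.65 (SE 0.0617, adjusted p = 0.00112, limma, Benjamini-Hochberg method). FGFR4 had 8.22 and 8.20 on the shINSL4 arrays, against 8.81 and 8.72 on the shCtl arrays, and fell by 0.56. FGFR2 rose by 0.25, a call lost in 6 of 13 alternatives (adjusted p = 0.0837 to 0.306), whereas FGFR1 and FGFR4 kept their calls under all 13. MET, the receptor of HGF, had a log2 fold change of -0.24 (adjusted p = 0.0626, limma, Benjamini-Hochberg method) and passed in 7 of 13 alternatives. These include the same fit read at an adjusted p under 0.1, where MET passes by its main value.

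The genes whose pattern over the 4 arrays was closest to that of SULF2 were found by the smallest sum of squared differences between deviations from each gene's own mean, among 10482 genes above the median level. They were ABCA12, a lipid transporter, with a sum of 0.0114, FBXW10 with 0.0114, the stress-response gene SESN1 with 0.0155, MAP2, a microtubule-associated protein, with 0.0224, and SCML2, a Polycomb-group gene, with 0.0489. Their log2 fold changes lay between 1.15 for FBXW10 and 1.40 for MAP2, against 1.25 for SULF2. With 4 arrays in 2 groups, likeness to SULF2 mostly means a difference between the groups of similar size, so these values are a description. FBXW10 has close copies in the genome, and the array may not tell them apart.

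**Figure D4:**
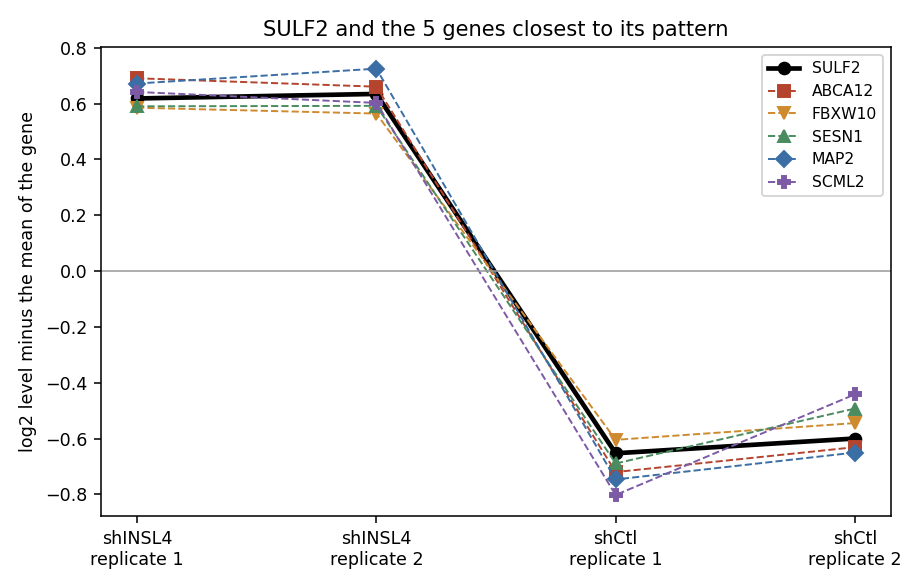
Log2 level minus each gene's own mean (vertical axis) on the 4 arrays (horizontal axis), for SULF2 (black) and the 5 genes closest to it. All 6 lines lie above 0 on both shINSL4 arrays and below 0 on both shCtl arrays; the shCtl arrays of SCML2 differ most from each other, at 7.21 and 7.57 before the mean is taken off.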

How the data were processed

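The deposited values are log2 levels made by the authors with RMA (Affymetrix Expression Console), as the submitters' processing notes record, with 1 column per array. The sources used here give no versions, annotation release, genome build, scan or slide. RMA corrects background, normalizes between arrays and summarises probes per transcript cluster. An array gives no read depth, and a gene's level on it also depends on its probes. Levels of different genes were used to order genes by brightness, and as differences within an array that were compared between the groups, not to say which of a pair has more RNA. Of 67528 rows, 23781 had exactly 1 symbol, which left 22465 genes after taking the row with the highest mean, with no filter on dim genes. Tests used limma 3.58.1 in R 4.3.3 (a group term, eBayes, two-sided, Benjamini-Hochberg adjustment over all genes at 0.05), with 2 residual and 4.68 prior degrees of freedom. The test was checked on simulated data with 22465 genes and 200 changed, under 2 models of the variance. In the real data 3557 genes were called, so the adjustment was stricter in the simulation than in these data. With each gene's own variance taken as its true one, the version tried first, it called 0% of the changed genes at a fold of 1.2, 0% at 1.5 and 79.5% at 2, with 0, 0 and 3 false calls. With variances drawn from limma's fitted prior, a version adopted after the first had recovered less, it called 0%, 81.5% and 97.5%, with 0, 10 and 10 false calls. Alternatives were median centring, cyclic loess, quantile normalization, an intensity trend (also robust), the mean over a gene's rows, the dimmest 40% of genes left out, an adjusted p under 0.1, a replicate block and each array left out.

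The genes, the 8 lists and the tests were chosen with earlier results of these data known. Named genes are INSL4, the set, up to 4 genes per list with the smallest p, and the 5 genes closest to SULF2, small RNAs, olfactory receptors, LOC, LINC and open reading frames left out. The split of genes by level was added after seeing the data. Of 111 listed symbols, 106 were measured. Fold changes are shINSL4 over shCtl. Upstream sequences are from RefSeq, GRCh38.p14, and the array's own build was not needed for them.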

Additional observations from a re-analysis of the deposited data

How the results depend on the processing

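Counts of calls in the set, in the lists and over all genes were recomputed under 13 alternatives. So were the log2 fold changes of SULF2 and of the 47 other named genes. Of the 13, 4 leave out an array and so leave 1 array in a group, assumed to vary like the rest. Marker calls, medians, overlap counts, pair differences, likeness to SULF2, and the values of SDC1 and SUMF1 were not recomputed. The SULF2 log2 fold change stayed between 1.20, after median centring, and 1.28, and was 1.23 to 1.28 with single arrays left out. Of the 8 other measured genes of the set, the 1 higher became 2 with the dimmest 40% of genes left out, 0 after median centring and 0 to 1 with single arrays left out, and the 1 lower became 0 with the mean over a gene's rows. Genes of the lists called higher, 12 as reported, numbered 5 after median centring, 7 after cyclic loess, 19 with the dimmest 40% left out, 19 at an adjusted p under 0.1 and 3 to 17 with single arrays left out; lower ones numbered 8 to 11 with single arrays left out. Over all genes, 1440 higher calls became 808 after median centring, 779 after cyclic loess, 2223 with the dimmest 40% left out, 2955 at 0.1 and 808 to 2999 with single arrays left out, where 2117 lower calls became 1403 to 2430. With the replicate number as a block (replicate block) there were 2996 higher genes overall and 19 in the lists. Same-numbered arrays deviated together with r = 0.23 across genes, which with 2 pairs does not settle a pairing. The sample titles also carry codes that share their letters within a replicate number, and what the letters stand for is not stated. Of the 47 other named genes 0 reversed a call, and calls lost numbered 13 without shINSL4 replicate 1, 12 without shINSL4 replicate 2, 6 without shCtl replicate 1, 8 without shCtl replicate 2, 8 after median centring and 5 after cyclic loess, with 0 to 2 under each other alternative. With the dimmest 40% of genes left out, only 41 of the 47 were present. Calls gained numbered 5 in that fit, 4 in the replicate block fit and 4 at an adjusted p under 0.1. Under each other alternative that kept all arrays, 0 to 2 were gained. In simulated data 0% of 1.2-fold changes were recovered, and recovery at 1.5-fold was 81.5% or 0%, depending on how variances were drawn. That simulation changed 200 genes, against 3557 called in these data, so its adjusted cutoff was stricter. Its shares do not give the recovery in these data, where EXT2 passed at 1.21-fold.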

Other observations

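Chondroitin and dermatan sulfate are built on the same linkage sugars as heparan sulfate by other enzymes. Of 15 measured genes of that pathway, 2 were higher and 2 lower in shINSL4 cells, against 6.41% higher and 9.42% lower of all tested genes. The median log2 fold change was 0.10, against 0.08 for all tested genes. UST, which sulfates the uronic acid of these chains, had log2 levels of 6.27 and 6.40 on the shINSL4 arrays, against 6.73 and 6.81 on the shCtl arrays, and fell by 0.44 (SE 0.0731, adjusted p = 0.00996, limma, Benjamini-Hochberg method). CHST3, which adds chondroitin 6-O-sulfate, had 7.18 and 7.32 on the shINSL4 arrays, against 7.67 and 7.64 on the shCtl arrays, and fell by 0.41. The dermatan enzymes CHST14 and DSE rose by 0.30 and 0.25. UST kept its call under all 13 alternatives, CHST3 lost it without shINSL4 replicate 1 (adjusted p = 0.0783), CHST14 without either shINSL4 array or shCtl replicate 2 (adjusted p = 0.0567 to 0.187), and DSE in 9 of 12 alternatives (adjusted p = 0.0546 to 0.361).

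The 20 measured markers of alveolar type II cells, fibroblasts, leukocytes and endothelium had a median log2 fold change of 0.14, against 0.08 for all tested genes. Of the 20, 1 was higher and 2 lower at an adjusted p under 0.05 (limma, Benjamini-Hochberg method), against 6.41% higher and 9.42% lower of all tested genes. The median log2 fold change was 0.10 for the 5617 dimmest of all tested genes and 0.11 for the 5616 next to them. SULF1 and HS6ST2, which are among the dimmest, had log2 fold changes of 0.12 and 0.18. HS6ST1, also at 0.18, lies among brighter genes with levels of 6.95 to 7.95, whose median was 0.077.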
